A study of Homo sapiens with 4 samples.

Results

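The genes described here are 30 genes of cholesterol synthesis and of its control by the transcription factor SREBP2, chosen by symbol from a list of enzymes, regulators and cholesterol carriers. All 30 were found among the 26364 rows of the count table, and all 30 passed the filter of at least 10 counts in 2 or more libraries, since their counts ranged from 61 to 2834 per library. The list holds 8 genes of the mevalonate part of the pathway, 12 genes of the sterol part, 6 genes that control SREBP2 and 4 genes of cholesterol transport and storage.

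The study sequenced RNA from SW480 and SW620, a pair of human colorectal adenocarcinoma lines derived from a primary tumor and from a lymph node metastasis, with the mitochondrial serine hydroxymethyltransferase SHMT2 knocked down or with the control. There was 1 library for each line and condition, so 2 SHMT2-knockdown libraries were compared with 2 control libraries, and nothing in the labels describes more than 1 culture behind a library. The knockdown cells carried a short hairpin RNA driven by a doxycycline-inducible promoter. The labels call the other libraries control, and the study describes them as cells with a control hairpin. Which of the study's SHMT2 hairpins was sequenced, and whether the control cells received doxycycline, is not given in the sources used here. RNA was measured in bulk, so fewer cells and less RNA per cell cannot be told apart.

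Cells build cholesterol from acetyl-CoA, first as mevalonate and isoprenoid diphosphates, then as squalene, and then as a series of sterols. SREBP2, encoded by SREBF2, is a membrane-bound transcription factor that SCAP escorts from the endoplasmic reticulum to the Golgi, where proteases encoded by MBTPS1 and MBTPS2 release its active part. When sterols are plentiful, the INSIG proteins hold SCAP in the endoplasmic reticulum, and the genes of the pathway, INSIG1 among them, are transcribed less. Rapidly dividing tumor cells use the pathway for membranes and for prenyl groups.

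The libraries held between 5530129 and 13774288 counts, and the knockdown library was the shallower of the pair in SW480 and the deeper one in SW620. Levels are given in CPM, the counts per 1000000 counts of a library after scaling by the trimmed mean of M-values (TMM). SHMT2 itself had 277 CPM in control SW480 cells and 30.9 after knockdown, and 687 and 47.5 CPM in SW620 cells, which left 11.2% and 6.92% of the control level. All 7 epithelial markers were detected, with KRT8 between 2490 and 5228 CPM, but VIL1 was near 0 in SW480 (1 and 2 counts), and CDH17 had at most 25 counts. The summed level of these markers was 6902 CPM in control and 5261 CPM in knockdown SW480 cells, and 10380 and 9362 CPM in SW620 cells. Of these markers, the keratin genes KRT8 and KRT18 each fell in knockdown cells, by 0.34 on the log2 scale (edgeR adjusted p = 0.00406 and 0.00537). The other 5 epithelial markers were not called. Their log2 fold changes were 0.29 for CDX2, 0.02 for VIL1, 0.01 for EPCAM, 0.004 for KRT19 and -0.43 for CDH17. Among the 4 leukocyte markers CD3E was at 0 in every library and PTPRC had at most 2 counts, and their summed level ranged from 4.68 to 10.9 CPM. The 5 fibroblast and endothelial markers summed to between 7.32 and 22.5 CPM, most of it COL1A1. The part of these marker shifts in the results was not tested.

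Of the 30 genes, 9 were downregulated in SHMT2-knockdown cells and 0 were upregulated, by edgeR's quasi-likelihood test with cell line as a term and Benjamini-Hochberg adjustment over 14024 genes at an adjusted p under 0.05. Over all genes tested, 1.17% were called lower and 0.492% higher. The 9 genes were ACAT2, HMGCS1, MVD, IDI1, FDFT1, SQLE and EBP among the enzymes, INSIG1 among the regulators and STARD4 among the carriers. At an unadjusted p under 0.05, 14 of the 30 genes were lower and 0 were higher, the further 5 being MVK, FDPS, LSS, MSMO1 and DHCR7, when 4.91% of all genes were lower and 4.15% higher at that threshold. All 30 together had a median of -0.33 on the log2 scale, against 0.01 over all genes tested. Summed over the 30 genes, the level went from 2453 to 1883 CPM in SW480 and from 2212 to 1978 CPM in SW620. Just inside the threshold lay ACAT2, at an adjusted p of 0.0367, and just outside it LSS, at 0.0610, in the same edgeR test.

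These calls rest on 2 pairs and 1 residual degree of freedom, and on the cell line as a term. In the fit without that pairing 0 of the 30 genes were called (2 lower at an unadjusted p under 0.05), and DESeq2 called 0, or 1 (INSIG1) when its independent filtering was turned off. HMGCS1, IDI1, FDFT1 and INSIG1 were called under all 5 other filters, scalings and depths tried with edgeR and the cell line term, while ACAT2, MVD, SQLE, EBP and STARD4 each lost the call under at least 1 of them, with adjusted p-values of up to 0.0651 (EBP) and 0.200 (ACAT2).

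**Figure D1:**
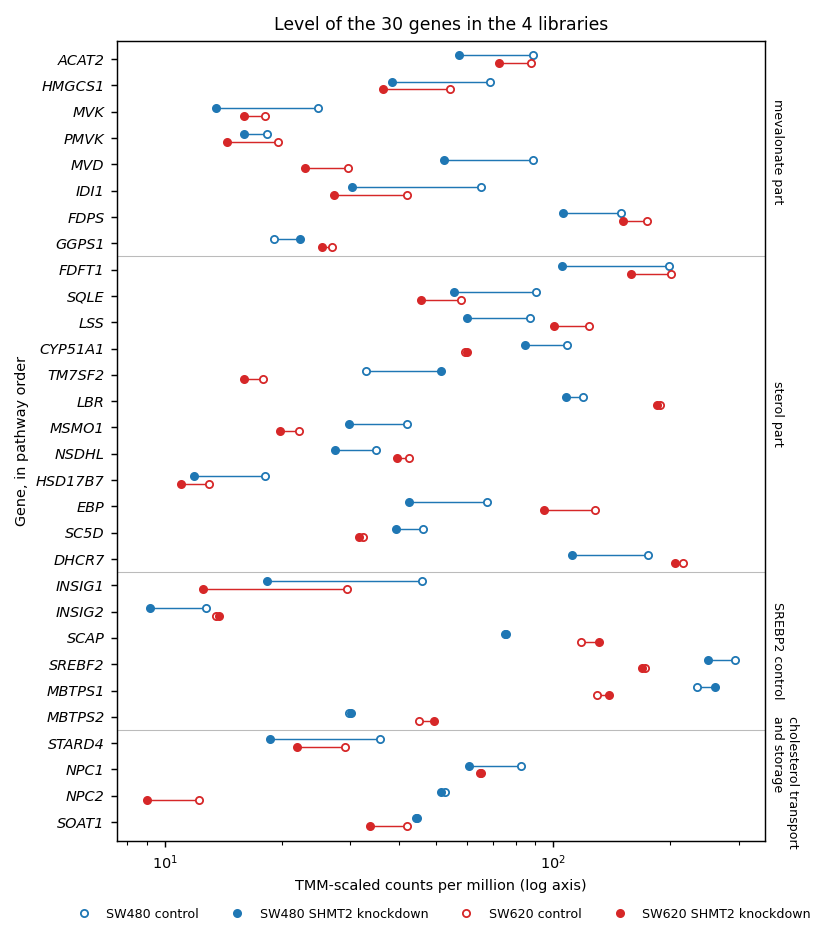
TMM-scaled CPM (log axis) of the 30 genes in pathway order, with SW480 in blue, SW620 in red, open circles for control and filled circles for SHMT2-knockdown libraries, and a line joining each pair. Filled circles lie to the left of open ones in both lines for 22 of the 30 genes, and the widest gaps in both lines belong to INSIG1.

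In the mevalonate part, which makes the isoprenoid building blocks, 4 of 8 genes were called lower and 0 higher, with a median log2 fold change of -0.49. HMGCS1, the cytosolic HMG-CoA synthase (GRCh38 chr5:43289395-43313512), had 68.6 CPM in control and 38.6 in knockdown SW480 cells, and 54.4 and 36.4 CPM in control and knockdown SW620 cells. Both knockdown libraries lay below both control libraries, and the log2 fold change was -0.70 (SE 0.137, edgeR adjusted p = 9.00e-05). IDI1, the isomerase that interconverts isopentenyl and dimethylallyl diphosphate (chr10:1039152-1049170), went from 65.2 to 30.4 CPM in SW480 and from 42.1 to 27.2 CPM in SW620. Its groups did not overlap either, and its log2 fold change of -0.87 (SE 0.144, edgeR adjusted p = 1.17e-06) was the largest fall among the enzymes.

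MVD, the decarboxylase that yields isopentenyl diphosphate (chr16:88651935-88663161), had 88.6 and 52.3 CPM in control and knockdown SW480 cells and 29.7 and 23.0 CPM in SW620 cells. The lines differed more than the conditions, so the groups overlapped, but MVD was lower in both pairs, by -0.59 on the log2 scale (SE 0.141, edgeR adjusted p = 0.00400). ACAT2, the thiolase that joins acetyl-CoA units at the start of the pathway (chr6:159760328-159779055), had 88.6 and 57.1 CPM in SW480 and 87.7 and 72.5 CPM in SW620. The controls of the lines were nearly level, both knockdown libraries lay below them, and the log2 fold change was -0.45 (SE 0.130, edgeR adjusted p = 0.0367). In GENCODE, 45.9% of the exon bases of ACAT2 overlap SOD2-OT1, 34.8% overlap SOD2 and 12.5% overlap TCP1, all on the other strand. For HMGCS1, 19.9% overlap the antisense gene AC114947.2, and for FDPS, 28.9% overlap the antisense gene RUSC1-AS1. For GGPS1, 11.3% overlap TBCE, on the same strand. Several others of the 30 genes had smaller overlaps. Whether counting used strand is not stated, so reads of these genes may be mixed, and for GGPS1 and TBCE strand would not separate them.

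The other 4 genes of the mevalonate part did not pass the test. The kinase gene MVK had 24.7 and 13.6 CPM in SW480 and 18.1 and 16.0 CPM in SW620 (log2 fold change -0.52, edgeR adjusted p = 0.218). FDPS, which makes farnesyl diphosphate, had 149 and 106 CPM in SW480 and 175 and 151 CPM in SW620 (-0.35, edgeR adjusted p = 0.123). A pseudogene copy, FDPSP2, had 36 counts over the 4 libraries in the same table, against 704 to 2032 for FDPS in single libraries. For HSD17B7, of the sterol part, the pseudogene HSD17B7P2 had 42 counts over the 4 libraries, against 71 to 174 for HSD17B7 in single libraries. Sharing of reads with near-identical copies cannot be told from the counts. PMVK, the next kinase, had 18.3 and 16.0 CPM in SW480 and 19.6 and 14.5 CPM in SW620. GGPS1, which extends farnesyl to geranylgeranyl diphosphate and so leaves the cholesterol route, had 19.1 and 22.3 CPM in SW480 and 26.9 and 25.4 CPM in SW620, and its pairs went in opposite directions.

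In the sterol part, from squalene to cholesterol, 3 of 12 genes were called lower and 0 higher, and the median log2 fold change was -0.35. FDFT1, the squalene synthase that commits farnesyl diphosphate to sterols, lies on chromosome 8 and had 199 and 105 CPM in control and knockdown SW480 cells and 201 and 159 CPM in SW620 cells. The control levels of the lines were almost equal, both knockdown libraries were lower, and the log2 fold change was -0.62 (SE 0.117, edgeR adjusted p = 4.09e-05). SQLE, the squalene epoxidase that performs the first oxygenation, is also on chromosome 8 and had 90.3 and 55.4 CPM in SW480 and 57.9 and 45.7 CPM in SW620. It fell by 0.53 on the log2 scale (SE 0.133, edgeR adjusted p = 0.00797), with both knockdown libraries below both controls.

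EBP, the sterol isomerase that moves a double bond in the ring (chrX:48521158-48528716), had 67.4 and 42.5 CPM in SW480 and 128 and 94.9 CPM in SW620. SW620 cells held more EBP than SW480 cells in either condition, so the groups overlapped, and within the pairs EBP fell by 0.54 on the log2 scale (SE 0.130, edgeR adjusted p = 0.00400). LSS, which folds squalene epoxide into lanosterol, missed the threshold with 87.3 and 60.1 CPM in SW480 and 124 and 101 CPM in SW620 (log2 fold change -0.41, edgeR adjusted p = 0.0610). DHCR7, which reduces 7-dehydrocholesterol to cholesterol, had 176 and 112 CPM in SW480 but 216 and 206 CPM in SW620 (-0.35, edgeR adjusted p = 0.103). The knockdown library thus held 63.7% of the control level in SW480 and 95.4% in SW620.

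The remaining 7 sterol genes had edgeR adjusted p-values between 0.477 and 0.961. LBR and TM7SF2 encode enzymes for the same step, the reduction of the sterol C14 double bond, and LBR is also a receptor for the nuclear lamina. LBR had 119 and 108 CPM in SW480 and 188 and 185 CPM in SW620. TM7SF2 had 33.0 and 51.4 CPM in SW480 and 17.9 and 16.0 CPM in SW620. It was the only enzyme of the sterol part with a positive fitted log2 fold change, 0.31 (edgeR adjusted p = 0.595), and that value came from SW480. CYP51A1, the lanosterol demethylase, had 109 and 84.5 CPM in SW480 and 59.1 and 60.1 CPM in SW620, again with the pairs apart in sign. MSMO1, NSDHL, HSD17B7 and SC5D, which demethylate and desaturate the sterol ring, were each below control in both lines, with fitted log2 fold changes between -0.43 and -0.14.

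**Figure D2:**
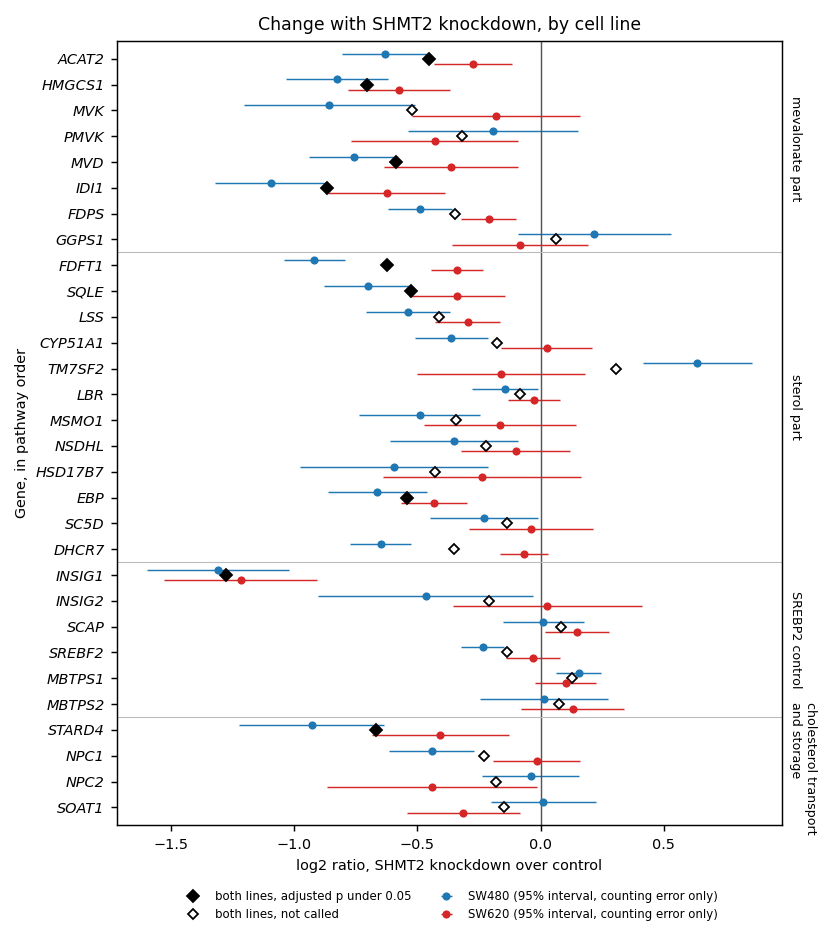
Log2 ratio of SHMT2-knockdown over control for each of the 30 genes, with SW480 in blue and SW620 in red (bars: 95% interval, counting error only) and diamonds for the fit over both lines (filled: adjusted p under 0.05). INSIG1 lies farthest to the left in both lines, and most blue points lie to the left of the red ones.

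Among the 6 genes that control SREBP2, INSIG1 alone was called, and it fell more than any other of the 30 genes. INSIG1, the sterol-dependent anchor of SCAP and itself a target of SREBP2 (chr7:155297776-155310235), had 45.8 CPM in control and 18.4 CPM in knockdown SW480 cells, and 29.5 and 12.5 CPM in SW620 cells. Both knockdown libraries lay below both controls, with 40.1% of the control level left in SW480 and 42.6% in SW620. Over both lines INSIG1 fell by 1.28 on the log2 scale (SE 0.172, edgeR adjusted p = 1.17e-10), and among the 14024 genes it ranked 29 by the size of the fall and 13 by p-value. The log2 ratios of the lines differed by -0.09 (SW480 minus SW620, 95% counting interval -0.51 to 0.33).

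The other control genes did not pass the test, and their fitted log2 fold changes lay between -0.21 and 0.13. INSIG2, the second anchor, had 12.8 and 9.19 CPM in SW480 and 13.5 and 13.8 CPM in SW620. SREBF2 had 295 and 250.1 CPM in SW480 and 173 and 169 CPM in SW620 (edgeR adjusted p = 0.868). The escort SCAP had 75.1 and 75.6 CPM in SW480 and 118 and 131 CPM in SW620. MBTPS1 had 234 and 261 CPM in SW480 and 129 and 139 CPM in SW620, while MBTPS2 had 29.8 and 30.1 CPM and 45.0 and 49.3 CPM. In SW480 the log2 ratios of SCAP and MBTPS2 were both 0.01, with counting intervals that included 0, and after thinning to equal totals they were -0.09 and -0.02. SREBP2 acts after its cleavage, which RNA counts do not measure.

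Of the 4 transport and storage genes, STARD4 was called lower. STARD4, a soluble protein that carries sterol between membranes (chr5:111496033-111512590), had 35.8 and 18.7 CPM in SW480 and 29.1 and 21.9 CPM in SW620. Both knockdown libraries lay below both controls, and the log2 fold change was -0.67 (SE 0.168, edgeR adjusted p = 0.00759). NPC1 and NPC2, which export cholesterol from lysosomes, had 82.7 and 60.8 CPM (NPC1) and 52.8 and 51.4 CPM (NPC2) in SW480. In SW620 they had 65.4 and 64.7 CPM and 12.3 and 8.98 CPM, respectively. SOAT1, which esterifies cholesterol for storage, had 44.4 and 44.7 CPM in SW480 and 41.9 and 33.7 CPM in SW620. None of these 3 genes passed the test.

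SREBP2 is known to bind sterol regulatory elements together with the factors NF-Y and Sp1, so the sequences around the start sites were read for the motifs of these factors. Promoters (250 bases before to 50 after the start, RefSeq, GRCh38.p14) were available for 27 of the 30 genes, all but ACAT2, FDFT1 and SQLE, and were searched on both strands for TCACNCCAC (a form of the sterol regulatory element), CCAAT (the NF-Y motif) and GGGCGG (the Sp1 motif). CCAAT was present in 17 of the 27 promoters (63.0%), against 36.3% of the promoters of tested genes with an entry. It was in 5 of the 6 called genes with an entry, all but IDI1, and in 12 of the 21 not called. GGGCGG was present in 22 of 27 (81.5%), against 69.9% of tested genes. TCACNCCAC was found only in SREBF2 among the 27 (3.70%), against 1.11% of tested genes, and no matches of different motifs overlapped. The stretches holding CCAAT in the 5 called genes, and the one with both CCAAT and TCACNCCAC in SREBF2, are shown 5′ to 3′ on the gene's strand, with CCAAT on either strand (ATTGG on the other) and the SREBF2 match to TCACNCCAC in capitals. A match is a description of letters and not of binding. Start sites here are those of RefSeq, and they can differ from the GENCODE gene spans given above. The EBP stretch lies inside its GENCODE span, and those of HMGCS1 and MVD run into theirs.
HMGCS1 (chr5:43313493-43313582, minus strand): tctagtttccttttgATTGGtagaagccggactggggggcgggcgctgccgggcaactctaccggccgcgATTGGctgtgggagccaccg
MVD (chr16:88663157-88663265, minus strand): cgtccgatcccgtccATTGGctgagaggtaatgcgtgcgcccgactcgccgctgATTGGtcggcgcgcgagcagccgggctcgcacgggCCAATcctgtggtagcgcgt
EBP (chrX:48521602-48521797, plus strand): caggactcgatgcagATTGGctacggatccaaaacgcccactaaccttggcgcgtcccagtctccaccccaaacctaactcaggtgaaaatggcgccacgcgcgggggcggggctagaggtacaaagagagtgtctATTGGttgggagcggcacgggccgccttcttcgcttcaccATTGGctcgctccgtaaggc
INSIG1 (chr7:155297693-155297727, plus strand): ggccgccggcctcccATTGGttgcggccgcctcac
STARD4 (chr5:111512646-111512711, minus strand): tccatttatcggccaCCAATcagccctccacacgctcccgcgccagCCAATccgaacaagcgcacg
SREBF2 (chr22:41832957-41833018, plus strand): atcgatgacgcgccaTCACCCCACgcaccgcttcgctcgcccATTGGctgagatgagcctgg
MVD and EBP each held 3 CCAAT matches, HMGCS1 and STARD4 held 2, and INSIG1 and SREBF2 held 1. The called gene IDI1 held 0. Of the 12 genes not called that held CCAAT, MVK and NSDHL had 5 matches, MSMO1 had 4 and FDPS had 3. The others of these 12, SREBF2 among them, had 1 or 2.

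The lines were also set side by side. In both lines 22 of the 30 genes were below control, while 26.1% of all genes tested were below control in both. SCAP, MBTPS1 and MBTPS2 were above control in both lines, and GGPS1, CYP51A1, TM7SF2, INSIG2 and SOAT1 had opposite signs. Several of these signs rest on ratios near 0: after thinning all libraries to the smallest total, 21 genes were below control in both lines, 1 (MBTPS1) was above in both, and 8 had opposite signs, of which GGPS1, TM7SF2 and SOAT1 were shared with the 5 above. The median log2 ratio was -0.48 in SW480 and -0.20 in SW620. The SW480 ratio was below that of SW620 in 24 of the 30 genes (80.0%), against 50.2% of all genes. Of the gene lists described below, the share was also 80.0% in sterol-regulated degradation and SREBP transport, and in fatty acid synthesis. It was 66.7% in other cholesterol handling, 30.8% in the prenyl branches, and 85.7% among the 7 epithelial markers. With 1 library per line and condition this difference between the lines was not tested, and the intervals given cover counting error only.

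The 95% counting interval of the difference lay below 0 for 13 genes (ACAT2, MVK, MVD, IDI1, FDPS, FDFT1, SQLE, LSS, CYP51A1, DHCR7, SREBF2, STARD4 and NPC1), as it did for 13.4% of all genes. It lay above 0 for TM7SF2 and SOAT1, and for 10.9% of all genes. DHCR7 and FDFT1 differed by -0.58 each (SW480 minus SW620), with intervals of -0.74 to -0.42 and -0.74 to -0.42. TM7SF2 went the other way with a difference of 0.80 (0.39 to 1.20). Across the 30 genes the log2 ratios of the lines had a Pearson r of 0.63 and a Spearman rho of 0.61, and over all 14024 genes 0.05 and 0.07. These are correlations across genes that share the same 4 libraries, and genes are not independent replicates. The 2 sets were not matched for count level. The 30 genes had at least 61 counts in every library, while the 14024 include genes with 0 counts in a library, whose ratios carry more counting error.

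Levels were compared between the lines by the cell line term of the same fit, over control and knockdown libraries together and not in the controls alone. Of the 30 genes, 9 were higher in SW620 and 11 were lower, when 32.3% of all genes were called higher and 31.3% lower, so these shares lay close to the background. NPC2 showed the largest difference, with a log2 difference of -2.33 (SW620 minus SW480, SE 0.171, edgeR adjusted p = 6.18e-41). MVD (-1.38) and TM7SF2 (-1.32) were also lower in SW620, whereas EBP (1.04), SCAP (0.72) and LBR (0.72) were higher. Per kilobase of exon, FDPS had the highest control level of the 30 genes in both lines, at 90.5 and 106 CPM per kb in SW480 and SW620, followed by DHCR7 at 66.0 and 81.2. INSIG1 stood above INSIG2 per kilobase in the controls of both lines (14.9 against 4.94 in SW480, and 9.57 against 5.23 in SW620). LBR likewise stood above TM7SF2 (30.6 against 19.1, and 48.3 against 10.4 CPM per kb).

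**Figure D3:**
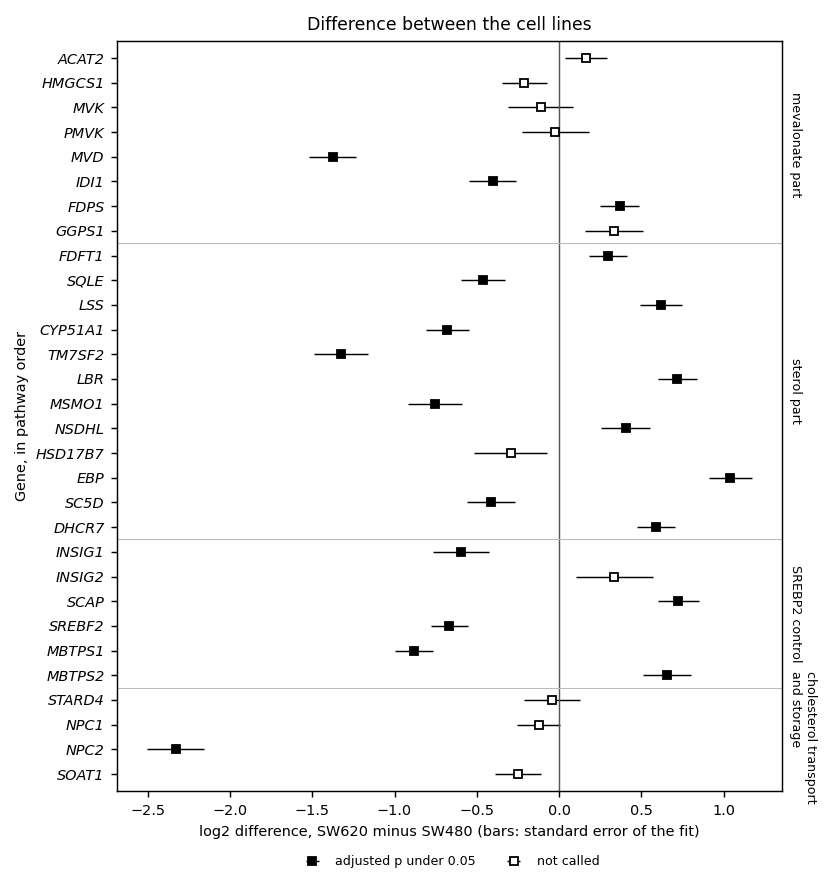
Log2 difference between SW620 and SW480 for the 30 genes in pathway order, over control and knockdown libraries, with bars for the standard error of the fit. Genes lie on both sides of 0, from NPC2 at -2.33 to EBP at 1.04.

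Neighboring gene lists gave a context for the 30 genes. Over all genes tested, 1.17% were called lower and 0.492% higher by the same edgeR test, so 0 calls in a short list is close to the background. In the prenyl branches, where enzymes such as DHDDS and FNTA use isoprenoids for dolichol, ubiquinone and protein prenylation, 0 of 13 tested genes were called in either direction by edgeR (0 at an unadjusted p under 0.05, and 0 by DESeq2 with or without independent filtering), and the median log2 fold change was -0.02. In the list for sterol-regulated degradation and SREBP transport, 2 of 15 were called lower and 0 higher, with a median of 0.02. ERLIN2, an endoplasmic reticulum protein that takes part in sterol-regulated degradation, went from 36.6 to 26.7 CPM in SW480 and from 47.8 to 19.1 CPM in SW620, so that 72.8% and 39.9% of the control level was left. It fell by 0.90 on the log2 scale (edgeR adjusted p = 4.95e-06). SAR1A, a GTPase of vesicles leaving the endoplasmic reticulum, fell by 0.43 (edgeR adjusted p = 0.0409). DESeq2 called 0 of these 15 genes, with or without independent filtering.

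Among 15 other cholesterol handling genes, 2 were called higher and 0 lower, with a median of 0.10. Both were efflux transporters that sterol-sensing LXR receptors induce. ABCA1 had 2.91 and 8.28 CPM in SW480 (285% of control) and 1.83 and 7.13 CPM in SW620 (389% of control), and rose by 1.68 on the log2 scale (SE 0.357, edgeR adjusted p = 0.000551). ABCG1 had 0.728 and 1.51 CPM in SW480 (207% of control) and 2.93 and 11.1 CPM in SW620 (378% of control), and rose by 1.68 (SE 0.421, edgeR adjusted p = 0.00730). Counts behind these levels were low, with 10 for ABCA1 in the SW620 control and 7 and 10 for ABCG1 in the SW480 pair. DESeq2 called 0 of these 15 genes, with or without independent filtering.

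In fatty acid synthesis, which SREBP1 controls, 3 of 10 genes were called lower and 0 higher, with a median of -0.27. SCD, the stearoyl-CoA desaturase, had 1671 and 844 CPM in SW480 and 965 and 530 CPM in SW620, and fell by 0.92 (edgeR adjusted p = 1.59e-19). FASN, the fatty acid synthase, fell by 0.35 (edgeR adjusted p = 0.00836), with log2 ratios of -0.63 in SW480 and -0.06 in SW620. FADS1, a desaturase of polyunsaturated fatty acids, fell by 0.43 (edgeR adjusted p = 0.0458), with the larger fall in SW620 (log2 ratio -0.71, against -0.14 in SW480). SREBF1 itself had a log2 fold change of 0.02 and did not pass the test. DESeq2 called 1 of the 10 fatty acid genes, with or without independent filtering.

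**Figure D4:**
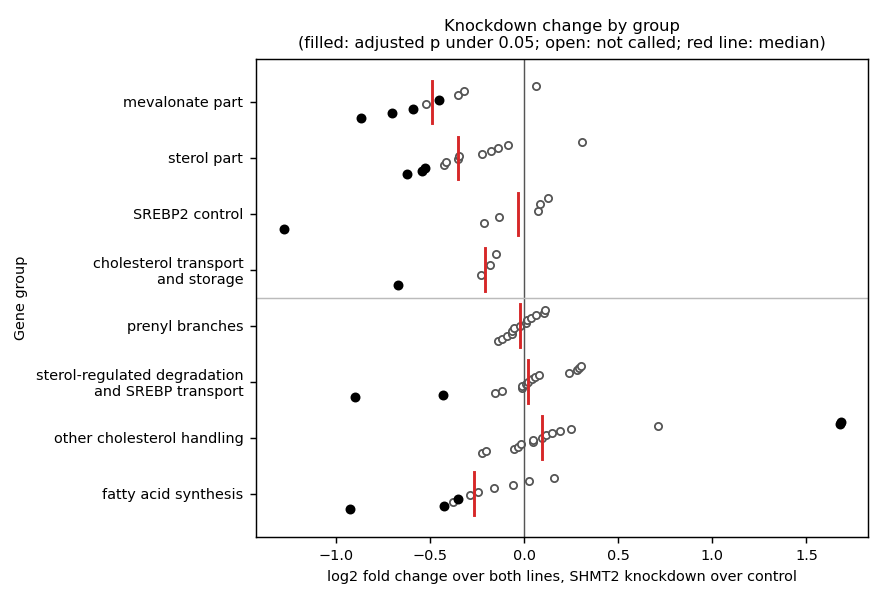
Log2 fold change over both lines for each gene of the 4 role groups and the 4 context lists (filled points: adjusted p under 0.05, open points: not called, red line: median). The medians lie at -0.49 for the mevalonate part and -0.35 for the sterol part, and at -0.02 for the prenyl branches.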

How the data were processed

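RNA from 4 cultures, SW480 and SW620 cells with SHMT2 knockdown or control, was sequenced after Illumina TruSeq library preparation. The deposited values are whole-number counts per gene symbol, made by the authors with no normalization, and the submitters' processing notes name Bowtie 0.12.2 and hg18. How reads were counted, on which gene models and with or without strand, is not given in the sources used here. The study's methods name a microarray for gene expression profiles, but the labels and the values are those of RNA sequencing.

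Groups were taken from the labels. Totals ranged from 5530129 to 13774288 counts, and the intervals given cover counting error only. Of the 26364 rows, 28 carried dates in place of symbols (0.217% of counts); these rows were kept as genes in the fit and are not named. Genes with at least 10 counts in 2 libraries (14024) were tested with edgeR 4.0.16 (R 4.3.3, TMM scaling, quasi-likelihood test, cell line and knockdown as terms) and Benjamini-Hochberg adjustment over all of them, with a threshold of 0.05. The replicate number stands for the cell line, so the numbers pair the samples, and the deviations of paired libraries from the condition means had a correlation of 0.961. The log2 ratios of single lines, with 2 added as prior count, have no test. P-values measure the spread left between these 4 libraries once cell line and knockdown are fitted, which may in part be technical. That spread is the difference between the lines in their knockdown change, and edgeR largely pools it over genes. A gene's SE and p-value therefore do not measure how well its own 2 pairs agreed. The SE was 0.116 for DHCR7, with log2 ratios of -0.65 in SW480 and -0.07 in SW620. For INSIG1 it was 0.172, with ratios of -1.31 and -1.22. The fit was checked on data drawn with known changes, which were the same in both lines and came with no difference between the lines. That check does not cover knockdown changes that differ between the lines.

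The 30 genes and the context lists were chosen with earlier results of these data known, and all 30 genes were named. Genes called in the knockdown comparison were described in full, and of each context list the called genes, at most 4 by p-value. Some genes of the pathway are not reported here. Gene positions and exon lengths came from GENCODE 29 (GRCh38) and promoters from RefSeq (GRCh38.p14), with no conversion from hg18. Alternatives were DESeq2 1.42.0, other scalings and filters, thinning to 5530129 counts, and leaving out libraries.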

Additional observations from a re-analysis of the deposited data

Results flagged for a closer look

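In 5 genes the only pair of SW480 went one way and the only pair of SW620 the other, and the difference was not tested. The difference in log2 ratio, SW480 minus SW620, was 0.80 for TM7SF2, -0.49 for INSIG2, -0.39 for CYP51A1, 0.32 for SOAT1 and 0.30 for GGPS1. The 95% counting interval of the single-line ratio lay above 0 for TM7SF2 in SW480 (0.42 to 0.86). It lay below 0 for CYP51A1 in SW480 (-0.51 to -0.21), INSIG2 in SW480 (-0.90 to -0.03) and SOAT1 in SW620 (-0.54 to -0.08). In none of the 5 genes did both lines have an interval apart from 0, and after thinning to equal totals CYP51A1 and INSIG2 were below control in both lines.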

How the results depend on the processing

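With the cell line term in the fit, the number of the 30 genes called lower was 9, and it was 4 with at least 50 counts in 2 libraries, 6 with total counts in place of TMM and 7 after thinning to the smallest total. DESeq2's Wald test called 0, with no adjusted p for 22 of the 30 genes and a lowest adjusted p of 0.198 among the others. It called 1 without independent filtering, an alternative chosen after seeing the data. Without the replicate block 0 of the 30 genes and 0 context genes in either direction were called, and the median of the 30 genes was -0.31 on the log2 scale. Among the context genes the calls were 5 lower and 2 higher. The number lower was 3 with no filter and with DESeq2 size factors, 2 with total counts and after thinning, and 1 with at least 50 counts and in both DESeq2 fits. The number higher was 1 with at least 50 counts and after thinning, and 0 in both DESeq2 fits. Both DESeq2 fits called 7 of the 30 genes lower in SW620, in place of 11, and 6 higher, in place of 9.

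Leaving out a single library was possible only with no replicate block, where the lone sample was assumed to vary like the others. The calls then ranged from 0 to 0 for the 30 genes and for the context genes. EBP ranged from -1.20 to 0.044 on the log2 scale, and 0.044 was its value without the SW620 control. MVD ranged from -1.40 to 0.37, and 0.37 was its value without the SW480 control. With no cell line term, the difference between the lines enters these values (SW620 minus SW480, -1.38 for MVD and 1.04 for EBP). Within the pairs, the log2 ratios in SW480 and SW620 were -0.76 and -0.36 for MVD and -0.66 and -0.43 for EBP. Leaving out a whole line left no residual degrees of freedom, so no calls could be counted, and the median of the 30 genes was -0.48 in SW480 alone and -0.20 in SW620 alone. The number of genes below control in both lines was 22 with TMM and with DESeq2 size factors and 21 with total counts, where NPC2 changed sign in SW480. After thinning it was 21: CYP51A1 and INSIG2 came to lie below control in both lines (-0.0047 and -0.012 in SW620), while LBR, SREBF2, NPC1, SCAP and MBTPS2 came to have opposite signs. The cause of these changes was not tested.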
